A study of Mus musculus with 5 samples.

Results

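The RNF12WT-only promoter sites are regions that were called for wild-type RNF12 in mouse embryonic stem cells (mESCs) and in neither of the other peak lists of the study. They were selected on 2 measured properties, peak overlap and distance to a start site: peaks of the RNF12WT list on chromosomes 1 to 19 and X that overlap no REX1 and no RNF12H569A,C572A peak by as much as 1 bp, and whose summit lies within 1 kb of an annotated transcription start site (TSS), were taken. By this rule 7189 sites were found among the 97272 RNF12WT peaks on these chromosomes. Of these 97272 peaks, 37848 (38.9%) overlapped neither other list wherever they lay. Of the 37584 RNF12WT peaks near a TSS, the 7189 sites made up 19.1%. Both shares were fixed by the selection and are given as background.

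RNF12, encoded by the X-linked gene Rlim, is a RING-type E3 ubiquitin ligase known for its part in X chromosome inactivation. Its best known substrate in these cells is REX1 (Zfp42), a zinc finger protein of the YY1 family that is marked by RNF12 for degradation by the proteasome. Promoters of housekeeping and many developmental genes in mammals lie in CpG islands, which are stretches rich in G, C and the dinucleotide CpG, while genes used in few tissues often start in CpG-poor sequence.

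The lists come from chromatin immunoprecipitation and sequencing (ChIP-seq) with a V5 antibody in female mESCs labelled 129/Sv-Cast/Ei, with 1 library for each protein. RNF12WT and RNF12H569A,C572A, a catalytically inactive form, carried a FLAG-V5 tag, were expressed from CAG promoter vectors, and were studied in Rlim+/- cells of the F1 2-1 line that kept an untagged allele. The REX1 library is labelled as WT cells with FLAG-V5-REX1, whereas the paper refers to a former study for where REX1 binds, and these accounts were not reconciled. Absence from the REX1 list therefore compares libraries that may differ in more than the protein. Chromatin of the RNF12 lines was prepared after 3 h with 15 µM of the proteasome inhibitor MG132 and was fixed with 2 mM disuccinimidyl glutarate and 1% formaldehyde. For the REX1 library neither MG132 treatment nor fixation was recorded here, so these may differ as well. The 2 control libraries, from cells labelled WT, were not analysed here. With 1 library per protein no test between proteins was made, peaks were not treated as replicates, and 95% Wilson intervals on shares of sites cover counting error only. How deeply each library was sequenced is unknown, as the lists hold peaks and no read totals.

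The sequence at the summits is shown first, because base composition differed widely between the RNF12WT-only and the shared sites. Each line holds the summit base and 50 bases to either side, read 5′ to 3′ on the plus strand of GRCm38 (mm10), with every CpG in capitals. The lines were taken from the sites with the highest fold enrichment, from those at genes without a REX1 or RNF12H569A,C572A summit, and, for Ncoa3, from the coding exons away from gene starts, leaving out windows with an annotated UTR.
Wt1, chr2:105163460-105163560: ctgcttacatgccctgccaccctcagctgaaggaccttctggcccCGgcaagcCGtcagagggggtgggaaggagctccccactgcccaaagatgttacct
B130024G19Rik, chr7:70365541-70365641: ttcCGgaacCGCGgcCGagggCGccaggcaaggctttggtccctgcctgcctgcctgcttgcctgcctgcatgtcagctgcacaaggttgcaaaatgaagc
Fam221a, chr6:49378406-49378506: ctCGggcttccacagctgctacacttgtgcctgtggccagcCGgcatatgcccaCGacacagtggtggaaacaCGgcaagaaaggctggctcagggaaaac
A530072M11Rik, chr4:16164022-16164122: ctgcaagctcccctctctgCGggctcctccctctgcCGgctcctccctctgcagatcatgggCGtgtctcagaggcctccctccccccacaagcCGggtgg
Tex13c1, chrX:43591350-43591450: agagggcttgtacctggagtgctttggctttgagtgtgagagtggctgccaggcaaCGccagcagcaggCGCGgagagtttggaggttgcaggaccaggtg
Gdap1, chr1:17145617-17145717: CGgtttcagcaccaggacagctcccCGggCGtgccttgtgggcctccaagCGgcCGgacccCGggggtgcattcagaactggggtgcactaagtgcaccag
Zfhx4, chr3:5218311-5218411: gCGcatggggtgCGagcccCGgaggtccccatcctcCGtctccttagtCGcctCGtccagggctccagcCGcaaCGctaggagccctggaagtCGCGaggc
Hnmt, chr2:24048513-24048613: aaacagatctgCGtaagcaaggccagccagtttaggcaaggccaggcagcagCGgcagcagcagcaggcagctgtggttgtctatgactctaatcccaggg
Ncoa3, chr2:166060804-166060904: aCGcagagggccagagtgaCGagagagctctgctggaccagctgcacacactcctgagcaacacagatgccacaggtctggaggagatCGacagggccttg
For comparison, the lines below hold the sites with the highest fold enrichment among RNF12WT promoter sites shared by all 3 lists, chosen after their values were seen and by the same rule on UTRs.
Adnp, chr2:168207391-168207491: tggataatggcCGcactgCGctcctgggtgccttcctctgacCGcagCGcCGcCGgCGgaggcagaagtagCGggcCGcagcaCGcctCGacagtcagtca
Casz1, chr4:148804261-148804361: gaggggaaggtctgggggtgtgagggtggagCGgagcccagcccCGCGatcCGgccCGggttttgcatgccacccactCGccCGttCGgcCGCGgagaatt
Gm49437, chr15:98872205-98872305: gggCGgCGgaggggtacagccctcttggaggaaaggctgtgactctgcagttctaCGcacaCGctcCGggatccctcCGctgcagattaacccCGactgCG
Mir670hg, chr2:94178927-94179027: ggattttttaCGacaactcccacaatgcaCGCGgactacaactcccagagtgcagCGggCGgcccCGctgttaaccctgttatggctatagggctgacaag
The RNF12WT-only windows at Wt1 and Hnmt held 2 CpGs each, those at Tex13c1 and Ncoa3 held 3, those at Fam221a and A530072M11Rik 4, and those at B130024G19Rik, Gdap1 and Zfhx4 5, 6 and 10. The shared windows at Adnp, Casz1, Gm49437 and Mir670hg held 11, 10, 8 and 6.

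Most RNF12WT-only promoter sites lay outside CpG islands. A site was called CpG-island-like when the sequence within 250 bp of its summit had at least 50% G and C and an observed over expected CpG ratio of at least 0.6. Of the 7189 RNF12WT-only sites, 592 (8.23%, interval 7.62% to 8.89%) met this definition. Of the 30395 other RNF12WT promoter sites, 71.9% (71.4% to 72.4%) did, with 83.2% of those shared by all 3 lists, 59.6% of those shared with RNF12H569A,C572A alone and 25.2% (23.6% to 26.8%) of those shared with REX1 alone. Over all 130588 annotated TSS positions the share was 31.8%. The median CpG ratio was 0.317 at RNF12WT-only sites and 0.747 at the other RNF12WT promoter sites, and the median GC content was 55.7% against 63.5%. Read the other way, RNF12WT-only sites made up 2.64% of the 22440 CpG-island-like RNF12WT promoter sites and 43.6% of the 15144 remaining ones.

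The low CpG content was seen in each stratum of position and strength that was examined. Within 250 bp of the TSS, 9.89% of RNF12WT-only and 78.2% of other RNF12WT sites were CpG-island-like. When sites had to lie within 250 bp of a TSS and within 1 kb of the 5′ end of a gene, the shares were 15.9% and 82.6%. When all RNF12WT promoter sites were split into 10 strata of −log10 q, they were in the weakest stratum 7.52% and 63.0%, and in the strongest 18.3% and 85.9%. REX1-only and RNF12H569A,C572A-only promoter sites, selected in the same way, were CpG-island-like in 10.4% and 22.3%. The value moved with the settings. At gene 5′ ends it was 13.2%, near TSSs of protein-coding transcripts 14.3%, and with stricter CpG limits 4.40%. Where only an overlap of 50% of both peaks counted as shared, 19634 sites were RNF12WT-only and 50.1% of them were CpG-island-like, and among the 20000 strongest peaks of each list, which changes both the RNF12WT sites kept and the peaks they can overlap, the share was 53.6%. By construction, the sites these settings add overlap a REX1 or RNF12H569A,C572A peak of the full lists.

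**Figure D1:**
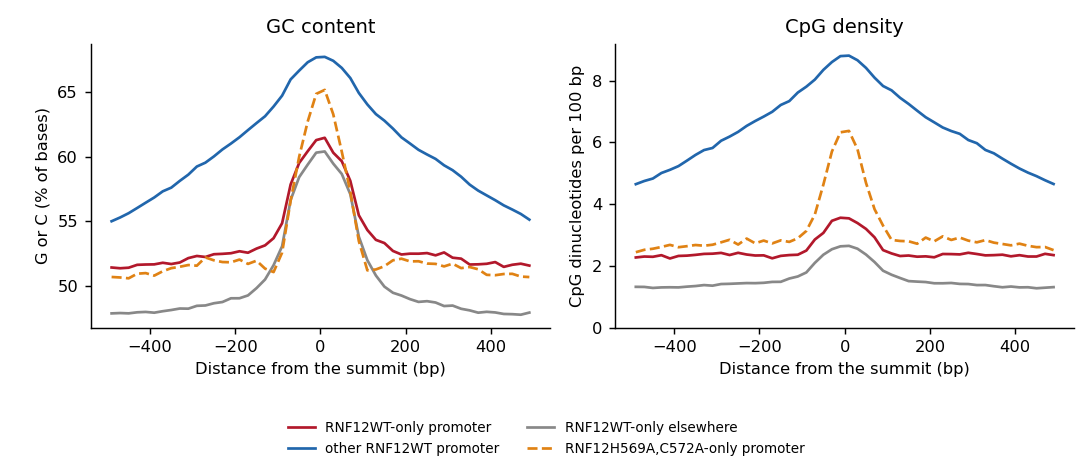
GC content (left, % of bases) and CpG dinucleotides per 100 bp (right) by distance from the summit (bp, bins of 20 bp) for RNF12WT-only promoter sites, other RNF12WT promoter sites, RNF12WT-only sites elsewhere and RNF12H569A,C572A-only promoter sites. RNF12WT-only promoter sites rise from 51.6% GC at 400 to 500 bp to 61.4% at the summit in a narrow peak, while their CpG density reaches 3.55 per 100 bp against 8.80 at the other RNF12WT promoter sites.

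GC content rose at the summits of the RNF12WT-only sites, although their surroundings were CpG-poor. The mean was 61.4% within 20 bp of the summit and 51.6% at 400 to 500 bp, and CpG density rose from 2.31 to 3.55 per 100 bp. At the other RNF12WT promoter sites GC content rose from 55.8% to 67.7% and CpG density from 4.89 to 8.80. RNF12H569A,C572A-only promoter sites had flanks close to those of the RNF12WT-only sites, with 50.8% GC, but reached 65.04% GC and 6.35 CpGs per 100 bp at the summit.

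Fixed sequence strings were searched on both strands within 50 bp of the summit and, as a local comparison, in flanks 250 to 350 bp away. The strings most often found were the antioxidant response element (TGACNNNGC), the E-box (CACGTG) and the CAG repeat (CAGCAGCAG). The antioxidant response element string was in 436 of 7189 summit windows (6.06%, interval 5.54% to 6.64%) and in 3.95% of flanks. It was in 5.16% of the summit windows of other RNF12WT promoter sites and in 4.74% of windows of the same length at all TSSs. At RNF12WT-only sites elsewhere it was in 6.19%, and at RNF12H569A,C572A-only and REX1-only promoter sites in 5.91% and 5.54%. The E-box, which MYC and related factors recognise, was in 197 windows (2.74%, 2.39% to 3.14%) against 1.59% of flanks, 3.54% of other RNF12WT promoter sites, 3.27% of RNF12WT-only sites elsewhere and 2.25% of all TSS windows. The CAG repeat was in 167 windows (2.32%, 2.00% to 2.70%) against 0.842% of flanks, 1.81% of other RNF12WT promoter sites and 1.01% of all TSS windows, and without sites that touch soft-masked bases its share was 1.64%. It was in 1.87% of RNF12WT-only sites elsewhere, 2.08% of RNF12H569A,C572A-only and 1.12% of REX1-only promoter sites. Summit GC content and word counts move together, and the part of base composition in these shares was not tested.

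Strings of the REX1 and YY1 family were rare. The YY1 string (AAGATGGC) was in 32 RNF12WT-only windows (0.445%, 0.316% to 0.628%), in 0.626% of their flanks, in 1.27% of other RNF12WT promoter sites and in 1.94% of all TSS windows. The REX1 strings ATGGCTGC and ATGGCGGC were in 0.765% and 0.223% of RNF12WT-only windows and in 0.529% and 0.181% of their flanks, against 1.19% and 1.76% of other RNF12WT promoter sites. At RNF12H569A,C572A-only promoter sites, which like the RNF12WT-only sites were selected to overlap no REX1 peak, the YY1 string and the REX1 strings were in 0.476%, 0.494% and 0.547% of windows. The string read from the study's RNF12 logo, with 1 mismatch allowed, was in 23 windows (0.320%, 0.213% to 0.480%), against 0.118% of flanks, 0.454% of other RNF12WT promoter sites and 0.137% of all TSS windows. It was in 0.359% of RNF12WT-only sites elsewhere, 0.370% of RNF12H569A,C572A-only and 0.208% of REX1-only promoter sites. The TATA box string (TATAAA), a core promoter element, was in 0.487% of summit windows and 3.498% of flanks. At other RNF12WT promoter sites it was in 0.332% and 2.16%, and at RNF12H569A,C572A-only promoter sites in 0.353% and 4.42%. The ETS (CCGGAAGT) and NRF1 (GCGCATGC) strings, which are bound by activators of many promoters, were in 0.348% and 0.515% of summit windows. They were in 0.285% and 0.243% of flanks, and in 1.85% and 0.915% of all TSS windows, which are centred on the TSS. Of the other strings, the GC box (GGGGCGGGG), the heat shock element (GAANNTTC), the CCAAT box (CCAATCA), the SOX string (CATTGTT) and the RFX X-box string (GTTGCCAT) were in 1.31%, 1.06%, 0.821%, 0.334% and 0.209% of windows. CTCF (AGGGGGCGC), ESRRB (TCAAGGTCA), CRE (TGACGTCA), octamer (ATGCAAAT), Ronin (ACTACAAT) and CEBP (TTGCGCAA) strings were in 0.195%, 0.139%, 0.125%, 0.0835%, 0.0556% and 0.0417%. The next lines show the strongest RNF12WT-only sites outside UTRs with the E-box, the antioxidant response element on the minus strand and the logo string, each in capitals, on the plus strand of GRCm38.
Camk2d, chr3:126596212-126596312: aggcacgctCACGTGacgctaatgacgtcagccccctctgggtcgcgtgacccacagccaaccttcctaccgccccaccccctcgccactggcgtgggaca
Gm38340, chr7:36720992-36721092: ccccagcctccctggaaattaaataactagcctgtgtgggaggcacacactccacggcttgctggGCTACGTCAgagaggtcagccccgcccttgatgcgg
Anks1, chr17:28057459-28057559: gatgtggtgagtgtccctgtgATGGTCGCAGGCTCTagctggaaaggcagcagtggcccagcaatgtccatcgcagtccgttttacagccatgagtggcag
The window at Tex13c1 above holds the CAG repeat. A match is a description of the sequence and not evidence of a bound factor.

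Words of 6 bases, counted the same way for both strands, gave a further view. Among the 1313 words present in at least 2% of RNF12WT-only windows, CCGGCA had the highest ratio of summit to flank share, at 5.13% against 2.23%. Of words without CpG, GCAGCC was in 21.3% of windows against 10.5% of flanks, and CAGCTG in 13.8% against 6.81%. At other RNF12WT promoter sites CCGGCA was in 8.76% of windows and GCAGCC in 24.0%, both more than at RNF12WT-only sites, and CAGCTG was in 7.99% of windows and 5.32% of flanks.

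The sites were spread more widely around the TSS than shared ones. Of the RNF12WT-only sites, 42.2% (41.1% to 43.3%) had their summit within 250 bp of the TSS, against 65.2% (64.6% to 65.7%) of the other RNF12WT promoter sites, and the median distances were 324 and 149 bp. Of promoter sites of a single other list, 37.5% (36.5% to 38.5%) of REX1-only and 42.5% (41.2% to 43.8%) of RNF12H569A,C572A-only sites lay within 250 bp. Their median distances were 364 and 325 bp. Summits lay upstream of the TSS at 40.3% of RNF12WT-only and 38.7% of other sites. At the limit of the selection, the summit of a site near the miRNA gene Gm27353 lay 1000 bp from the TSS and that of the first RNF12WT-only peak left out, near Cemip2, lay 1001 bp away. A site at Sbno2 touched a REX1 peak with a gap of 0 bp, and a site at Fbxo30 was left out for an overlap of 1 bp.

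**Figure D2:**
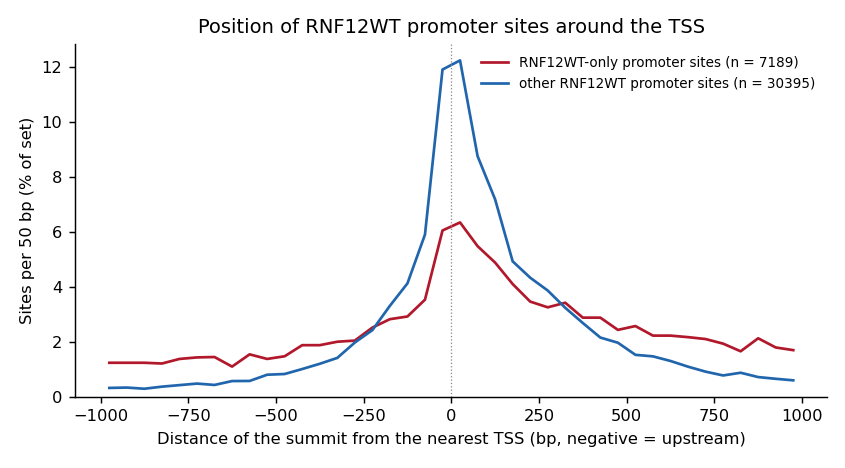
Percent of sites per 50 bp (vertical axis) by distance of the summit from the nearest TSS (bp, negative values upstream) for RNF12WT-only and other RNF12WT promoter sites. RNF12WT-only sites reach 6.34% just downstream of the TSS against 12.2% for the other sites, and hold more of their sites beyond 500 bp.

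The name promoter held for only part of the sites. Of the RNF12WT-only sites, 3724 (51.8%, 50.6% to 53.0%) lay within 1 kb of the annotated 5′ end of a gene, and the other 3465 lay only near the annotated start of another transcript of a gene. Of the other RNF12WT promoter sites 81.0% lay at a gene 5′ end. A TSS of a protein-coding transcript was within 1 kb of 49.8% of RNF12WT-only and 84.2% of other sites. The summit fell in coding sequence at 2010 RNF12WT-only sites (28.0%, 26.9% to 29.0%) and at 20.6% of other sites, whereas it fell in a UTR outside coding sequence at 8.99% and 24.6%. Introns held 37.0% and 28.0%, and sequence outside genes 12.5% and 16.7%. Protein-coding genes with 1 annotated TSS position had an RNF12WT-only site in 8.96% of cases, and those with 10 or more in 42.8%, so counts by gene moved with the number of annotated starts.

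Several sites could lie at the starts of a single gene. The 5573 genes nearest to the sites had 1 site in 4423 cases, 2 in 833 and at least 3 in 317. The most was 7, at Pitpnm2, Prrc2b, Mroh1, Cic, Gpsm1 and Rere, 6 genes that also had REX1 or RNF12H569A,C572A summits at a TSS. Cic encodes a repressor of targets of receptor tyrosine kinase signalling, and 6 of its 7 sites had their summit in coding sequence. At Rere, which encodes a nuclear receptor coregulator, the count was also 6 of 7, and at Prrc2b it was 0 of 7. These 6 genes had between 8 and 14 annotated TSS positions, and 0 of their sites were CpG-island-like.

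RNF12WT-only sites were weaker than the other RNF12WT promoter sites. Fold enrichment, the authors' ratio of signal over control at the summit, for which the control library used is not given in the sources used here, ranged from 1.84 to 11.9 with a median of 4.54 (quartiles 3.85 and 5.26), against a median of 4.90 (4.00 and 6.09) at the other sites. The median −log10 q was 4.11 against 5.60, and the median width 110 against 181 bp. Sites shared with a single other list were closer in strength to the RNF12WT-only sites. Median fold enrichment was 4.58 at sites shared with REX1 alone and 4.59 at those shared with RNF12H569A,C572A alone. The median −log10 q of these sets was 4.54 and 4.72. In all 3 lists the medians were 5.09 and 6.06, and at RNF12WT-only sites elsewhere 4.73 and 4.11. Of the weakest of 10 strata of RNF12WT promoter sites by −log10 q, 31.1% (29.7% to 32.6%) were RNF12WT-only, and of the strongest 2.18% (1.76% to 2.70%). Many sites had the same value, with 1340 distinct fold enrichments over 7189 sites and 164 sites at a fold enrichment of 4.02 with a −log10 q of 3.26.

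**Figure D3:**
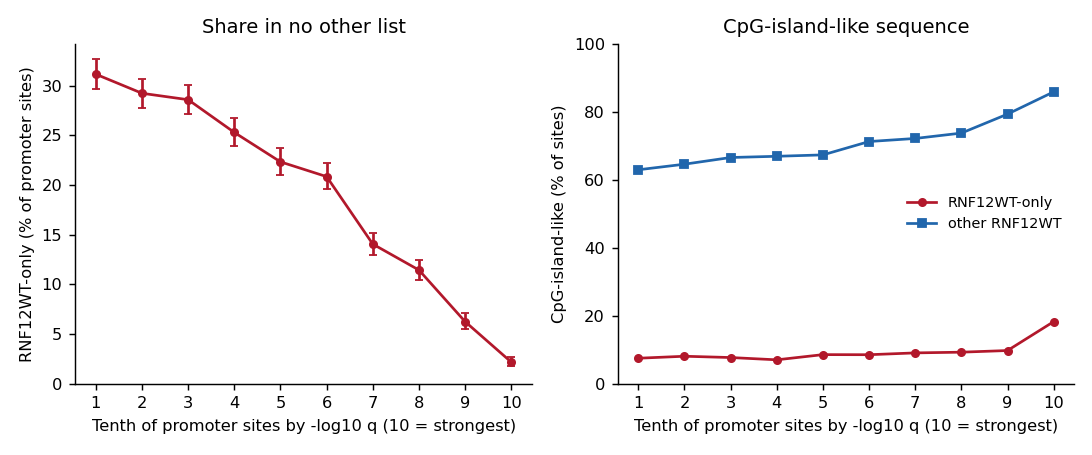
Share of RNF12WT promoter sites that are RNF12WT-only (left, %, bars are 95% Wilson intervals) and share of CpG-island-like sites (right, %) in 10 strata of RNF12WT promoter sites by −log10 q, where 10 is the strongest. The left share falls from 31.1% to 2.18%, and on the right the RNF12WT-only sites stay at or under 18.3% while the other sites lie at 63.0% or above.

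The strongest RNF12WT-only sites lay near genes of varied function. The highest fold enrichment was 11.9, with a −log10 q of 19.6, at Zfp93, a zinc finger gene, 82 bp downstream of the TSS (summit at chr7:24270502, in the UTR). Scg2, which encodes the neuropeptide precursor secretogranin II, Wt1, a transcription factor of kidney and gonad development, and the non-coding B130024G19Rik shared a fold enrichment of 10.8. Their summits lay 6 bp upstream, 702 bp downstream and 432 bp downstream of a TSS. At Fam221a the value was 10.0, in a coding exon, at -518 bp from a TSS of another transcript. A530072M11Rik, a non-coding gene, and Tex13c1, an X-linked gene of a testis-expressed family, had 9.69, and Tspan32os, an antisense gene, 9.37. Gdap1, which encodes a mitochondrial fission protein of neurons, the zinc finger homeobox gene Zfhx4, the lincRNA A430048G15Rik and Kdm8, which encodes a JmjC-domain oxygenase, each had 9.32. Peaks of the other lists lay close to some of these sites, with an RNF12H569A,C572A edge 120 bp from the site at Kdm8 and 354 bp from that at A530072M11Rik, and a REX1 edge 106 bp from that at A430048G15Rik, 332 bp from that at Tspan32os and 946 bp from that at Zfp93. At Scg2, Wt1, Fam221a, Tex13c1 and Gdap1 no edge of either list was within 10000 bp.

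Many RNF12WT-only sites were near genes that the other lists also reached. For 5624 sites (78.2%, 77.3% to 79.2%) the gene of the nearest TSS had a REX1 or RNF12H569A,C572A summit within 1 kb of some TSS, and for 65.6% it had both. The first share was 67.2% (66.7% to 67.7%) at RNF12WT-only sites elsewhere, by the gene of their nearest TSS, and 99.9% at the other RNF12WT promoter sites, where the overlap with another list nearly fixes it. For REX1-only and RNF12H569A,C572A-only promoter sites, the gene had a summit of a remaining list in 79.3% and 66.3% of cases. A REX1 or RNF12H569A,C572A peak edge lay within 100 bp of 13.7% of the sites, within 500 bp of 39.3%, within 1 kb of 52.2% and within 10 kb of 88.5%. REX1 and RNF12H569A,C572A edges lay within 1 kb of 40.5% each. The remaining 1565 sites (21.8%, 20.8% to 22.7%) were near genes with neither, and 31 of these (1.98%) were CpG-island-like. With the 20000 strongest peaks of each list, the share of sites at genes with another list was 40.04% instead of 78.2%. The share of all genes with a REX1 or RNF12H569A,C572A summit was not computed, so 78.2% has no such background.

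Of 21755 protein-coding genes, 4330 (19.9%) had an RNF12WT-only summit within 1 kb of a TSS, and 506 (2.33%) had one with no REX1 or RNF12H569A,C572A summit at any TSS. Of the 4330, 3335 had both other proteins, 250 REX1 alone and 239 RNF12H569A,C572A alone. The same counts over all protein-coding genes were not computed, so no background stands beside them. Among the 506, the highest fold enrichments were those of Scg2, Tex13c1, Gdap1 and Zfhx4. They were followed by Cela2a, which encodes a pancreatic elastase, at 8.95, Ly86, a partner of a Toll-like receptor relative on B cells, at 8.58, Hnmt, the histamine methyltransferase, at 8.58, and Hes7, an oscillating repressor of the segmentation clock, at 8.42. At Hes7 the summit lay 30 bp downstream of the TSS and the nearest RNF12H569A,C572A edge was 863 bp away.

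A gene of a list was counted when an RNF12WT-only summit lay within 1 kb of any of its TSSs, also where the nearest TSS was that of another gene. Among 25 gene lists, developmental and neuronal genes had the highest shares of genes with RNF12WT-only sites, at genes that the other lists mostly also reached. Of 158 homeobox, forkhead and related developmental factors, 55 (34.8%, 27.8% to 42.5%) had a site, against the 19.9% of all protein-coding genes. Only Tbx6, a T-box factor of paraxial mesoderm, and Tbx10 lacked REX1 and RNF12H569A,C572A summits there. At Tbx6 the fold enrichment was 7.12 and at Foxr1, a forkhead gene, 6.99. Of 45 neuronal and synaptic genes, 17 (37.8%, 25.1% to 52.4%) had a site. Fold enrichment was 7.18 at the NMDA receptor subunit gene Grin2b and 5.76 at the kinase gene Camk2a, the latter away from gene 5′ ends. RNF12WT summits of any kind were also more frequent there, as 92.4% of the developmental and 91.1% of the neuronal genes had an RNF12WT summit near a TSS, against 68.9% of all protein-coding genes. Among genes with such a summit, an alternative added after the data were seen, 37.7% (30.2% to 45.8%) of developmental and 41.5% (27.8% to 56.6%) of neuronal genes had an RNF12WT-only site, against 28.9% of all, which lies within the neuronal interval. Neuronal genes had 7.42 annotated TSS positions on average and developmental factors 3.09, against 4.28 over all protein-coding genes, and the part of this number in the shares was not tested.

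Signalling and chromatin lists had shares whose intervals held the 19.9% of all genes. Among genes with an RNF12WT summit, where that share was 28.9%, their intervals held it too, with 22.6% for FGF and MAPK, 27.0% for WNT and 30.3% for Polycomb genes. Of 37 TGF-beta, Nodal and BMP genes 12 had a site, led by the BMP effector Smad9 at 7.14 and its target Id1 at 6.58. Of 38 WNT genes 10 did, with 6.81 at Axin2, a feedback inhibitor, and 6.37 at the nuclear effector Tcf7l2. Of 31 FGF and MAPK genes 7 did, with 8.08 at Spry2, an inhibitor of the pathway, and 5.14 at the ETS gene Etv5. Polycomb genes had a site in 10 of 33 cases, with 8.95 at Jarid2, a partner of PRC2, and 7.48 at Phc1, a PRC1 subunit. DNA methylation and demethylation genes had one in 6 of 19, with 5.76 at the dioxygenase gene Tet1 and 5.72 at the methyltransferase gene Dnmt3a. Imprinted genes had one in 12 of 42, with 6.64 at Commd1 and 5.99 at Mest, and Hox genes in 12 of 39, with 6.61 at Hoxa7 and 6.499 at Hoxb9. The nearest REX1 or RNF12H569A,C572A edge lay 3 bp from the site at Axin2, 10 bp from Id1, 13 bp from Smad9 and 25 bp from Spry2. It lay 1734 bp from the site at Phc1, 2928 bp from Jarid2 and 2983 bp from Tcf7l2. The sites at Tcf7l2, Jarid2, Phc1, Tet1, Hoxa7 and Commd1 did not lie within 1 kb of a gene 5′ end.

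The shares of pluripotency genes and of genes around RNF12 and ubiquitin also had intervals that held 19.9%. Of 26 naive pluripotency genes 5 had a site, namely Gbx2 (5.18), Tbx3 (4.93), Lin28a, Sall4 and Stat3. Of 17 genes of the REX1 and YY1 family, RNF12 and its reported substrates 4 had one, with 6.12 at Lhx2 and 5.99 at Ldb1, which encode a LIM homeodomain factor and its cofactor, and with lower values at Lmo4 and Stub1. All 9 of these genes also had REX1 and RNF12H569A,C572A summits at a TSS. An RNF12H569A,C572A edge lay 9 bp from the site at Ldb1 and 169 bp from that at Lhx2, both away from gene 5′ ends. A REX1 edge lay 89 bp from the site at Tbx3 and 104 bp from that at Gbx2. RING finger genes had a site in 22 of 77 cases, ubiquitin-conjugating enzymes in 4 of 34, with 6.37 at Ube2d2b, and proteasome genes in 7 of 49, with 5.86 at the immunoproteasome gene Psmb8. Heat shock genes had one in 16 of 78, with 6.37 at Dnajc6 and 5.78 at Dnajb13, both away from gene 5′ ends. Among genes with an RNF12WT summit, the share for ubiquitin-conjugating enzymes was 12.9% (5.13% to 28.85%), just under the 28.88% of all protein-coding genes. The intervals of the pluripotency, RNF12, RING finger and heat shock lists held 28.88%.

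Housekeeping lists had shares whose intervals held the 19.9% of all genes, but some lay lower among genes with an RNF12WT summit. Cytosolic ribosomal protein genes had a site in 10 of 82 cases (12.2%), with 6.28 at Rpl18, and mitochondrial ribosomal protein genes in 11 of 78 (14.1%), with 6.54 at Mrps5 and 5.78 at Mrpl48. Respiratory chain genes had one in 15 of 94 (16.0%), with 6.65 at Ndufa7 and 6.61 at Atp5a1, and translation factors in 12 of 67 (17.9%), with 7.03 at Eef1a2 and 6.82 at Eif4g3. Splicing genes had one in 18 of 88 (20.5%), with 7.24 at Sf3b2 and 7.11 at Hnrnpdl, and cell cycle and replication genes in 21 of 80 (26.3%), with 8.52 at a site within 1 kb of a TSS of Orc2, whose nearest TSS is that of the lincRNA Gm15834, and 8.21 at the anaphase-promoting complex gene Cdc16. Among genes with an RNF12WT summit, where the share of all protein-coding genes was 28.9%, it was 12.8% (7.12% to 22.0%) for cytosolic and 14.7% (8.39% to 24.4%) for mitochondrial ribosomal protein genes, 16.9% (10.5% to 26.0%) for the respiratory chain and 14.9% (7.41% to 27.7%) for the proteasome. The intervals of translation, splicing and cell cycle genes held 28.9%. Of the sites named here, those at Mrps5, Mrpl48, Ndufa7, Eif4g3, Hnrnpdl and Cdc16 did not lie within 1 kb of a gene 5′ end. Zinc finger Zfp genes had a site in 62 of 391 (15.9%, 12.6% to 19.8%), and in 19.3% (15.3% to 23.9%) of those with a summit, with both intervals under the share of all genes.

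Histone and olfactory receptor genes, which lie in genomic clusters, seldom had an RNF12WT-only site. Of 61 replication-dependent histone genes, 58 had an RNF12WT summit and 1 an RNF12WT-only site, at the testis histone gene Hist1h1t (7.07). Of 1093 olfactory receptor genes, which are silent in most cells, 20 (1.83%, 1.19% to 2.81%) had a site and 17 of these had no REX1 or RNF12H569A,C572A summit, with 6.37 at Olfr414 and Olfr1099. Only 28 olfactory receptor genes had any RNF12WT summit, so that among these the share with an RNF12WT-only site was 71.4% (52.9% to 84.7%), above the 28.9% of all genes, while for histones it was 1.72% (0.305% to 9.14%). At 18 of the 28 each such summit was RNF12WT-only. Histone genes had 1.10 and olfactory receptor genes 2.33 annotated TSS positions on average, and over all protein-coding genes with 1 TSS position the share was 8.96%. Of 57 clustered protocadherins, which are adhesion proteins of neurons, 21 had an RNF12WT summit and 6 an RNF12WT-only site (10.5%, 4.91% to 21.1%, an interval that held 19.9%), with 6.30 at Pcdhb1.

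**Figure D4:**
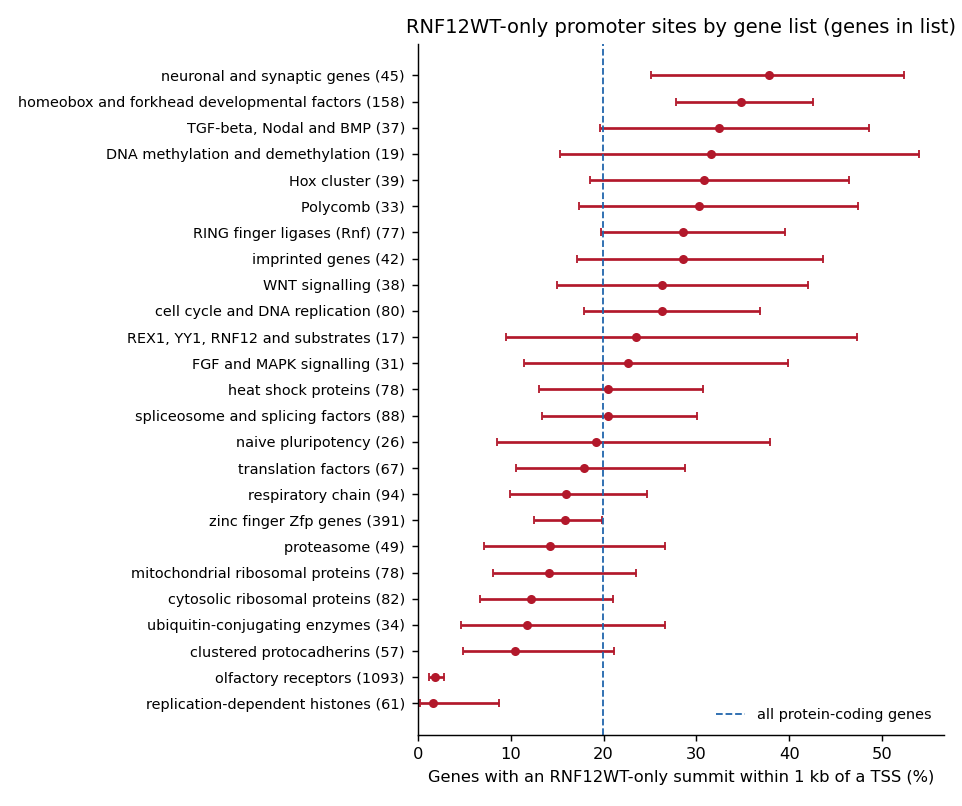
Percent of the genes of each list with an RNF12WT-only summit within 1 kb of a TSS (points, with 95% Wilson intervals, and the number of genes in parentheses). The dashed line is the 19.9% of all protein-coding genes, and the neuronal (37.8%) and developmental (34.8%) lists lie above it with their intervals, while zinc finger Zfp genes (15.9%), olfactory receptors (1.83%) and histones (1.64%) lie below it.

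The share of RNF12WT promoter sites that were RNF12WT-only differed between classes of nearest gene. RNF12WT-only sites made up 88 of 122 RNF12WT promoter sites nearest to a snoRNA gene (72.1%, 63.6% to 79.3%), 156 of 444 nearest to a miRNA gene (35.1%) and 394 of 1148 nearest to a processed pseudogene (34.3%), against 17.4% of those nearest to a protein-coding gene. Near rRNA genes it was lower, with 12 of 171 (7.02%, 4.06% to 11.9%), as it was near bidirectional promoter lncRNA genes, with 8 of 125 (6.40%, 3.28% to 12.1%), and near transcribed unprocessed pseudogenes it was 9 of 65 (13.8%, 7.46% to 24.3%). Of the 88 sites at snoRNA genes, 85 were at genes with predicted Gm names and 55 touched soft-masked bases, against 25.2% of all RNF12WT-only sites. The highest value near a snoRNA gene was 6.82, at Gm22247. Near miRNA genes it was 8.17, at Mir138-2, 53 bp downstream of the annotated start, followed by 7.18 at Mir615, which lies in the Hoxc cluster.

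The sites were unevenly spread over the chromosomes. On chromosome 12, 49 of 959 RNF12WT promoter sites were RNF12WT-only (5.11%, 3.89% to 6.69%), and on chromosome 10, 187 of 1459 (12.8%, 11.2% to 14.6%). On the other 18 chromosomes the share ran from 15.3% on chromosome 13 to 24.0% on chromosome 7. Per 1000 annotated TSS positions there were 9.69 sites on chromosome 12 and 30.3 on chromosome 10, against 38.3 on chromosome X and 87.6 on chromosome 11. The lists as a whole also differed there. Chromosomes 10 and 12 held 1459 and 959 RNF12WT promoter sites against 1686 and 1562 of REX1 and 1559 and 1154 of RNF12H569A,C572A, whereas on each of the other 18 chromosomes RNF12WT had the most. The part of this difference in the low shares was not tested. Without chromosomes 10 and 12 the CpG-island-like share was 8.33%.

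**Figure D5:**
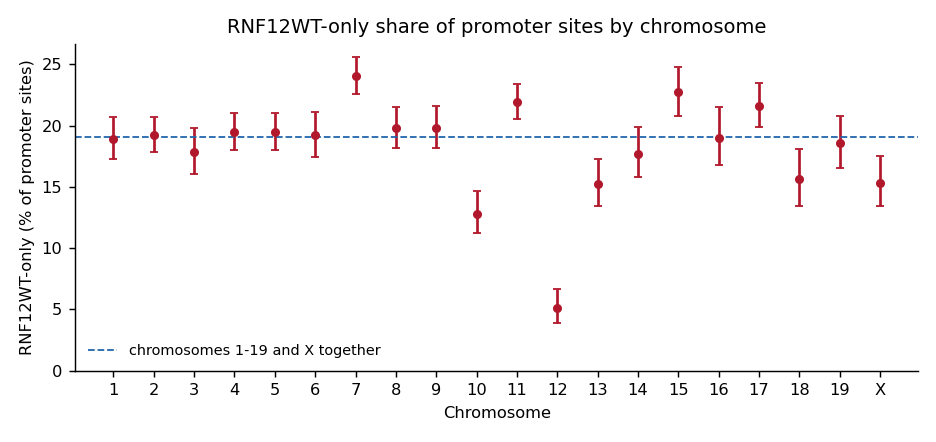
Percent of RNF12WT promoter sites on each chromosome that are RNF12WT-only (points, with 95% Wilson intervals). Chromosome 12 lies lowest at 5.11%, followed by chromosome 10 at 12.8%, and the dashed line marks the 19.1% of chromosomes 1 to 19 and X together.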

How the data were processed

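Peaks of RNF12WT, RNF12H569A,C572A and REX1 ChIP-seq in mESCs were analysed, with 1 library each. Per the labels and methods, the authors trimmed reads with Trim Galore 0.6.7, aligned them with Bowtie2 2.5.0 to a mouse mm10 genome masked at positions that differ between 129/Sv and Cast/Ei, split and merged alleles, used SAMtools 1.10 and called narrow peaks per protein with MACS2 2.2.7.1. The deposited lists give fold enrichment over control as a ratio, and −log10 of p and q values. The authors' score column was not used. Neither read counts nor a second library underlie the values used here, so the depth is unknown, and fold enrichment was compared only within the RNF12WT list. The control libraries were not analysed here.

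Overlap meant at least 1 shared bp. Each site was assigned to the gene of its nearest GENCODE M21 TSS, with all transcripts used. Sequence came from the RefSeq GRCm38.p6 genome, and 20 of 20 chromosomes held all peaks within their length. Shares carry 95% Wilson intervals, computed in Python 3.11.15 with numpy 2.4.6 and pandas 2.3.3, and figures were drawn with matplotlib 3.10.9. Interval and overlap code was tested on simulated data. No test between proteins was made. The sites, gene lists and strings were chosen with earlier results of these data known.

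Named genes were the 12 sites with the highest fold enrichment, the 8 highest at protein-coding genes without a REX1 or RNF12H569A,C572A summit, the 2 highest of each of the 25 gene lists, the genes with the most sites (6 tied), the strongest site with each string shown and the sites at each limit. Some sites that this rule names are not reported here. Other genes were chosen after their values were seen. Peak strength, the definition of shared, the TSS set, repeats and CpG limits were varied.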

Additional observations from a re-analysis of the deposited data

How the results depend on the processing

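The CpG-poor character of the sites moved with which peaks could count as shared, among other settings. Against 7189 sites, 19.1% of RNF12WT promoter sites, 78.2% at genes with another list, 42.2% within 250 bp of a TSS and 8.23% CpG-island-like, the values below moved past the main interval or by over 1.5 times. With the 20000 strongest peaks of each list they were 4476 sites, 39.6%, 40.04%, 62.5% and 53.6%, and with only 50% overlap as shared 19634, 52.2%, 91.9%, 53.5% and 50.1%. When a peak within 500 bp counted as shared they were 4365, 11.6%, 64.6%, 43.8% and 1.42%. Limits on −log10 q were set on the RNF12WT list alone, with overlap still taken against the full other lists. With −log10 q of at least 5 the number was 2392, and the shares of promoter sites, within 250 bp and CpG-island-like were 11.7%, 44.8% and 9.16%. With at least 2 the share of promoter sites was 18.6%. With TSSs of protein-coding genes the shares were 17.1%, 89.9% at genes with another list and 9.60% CpG-island-like. With summits within 500 bp of a TSS there were 4767 sites, 15.5%, 76.9%, 63.6% and 9.86%. Without soft-masked bases the shares were 17.9% and 79.7%, and with stricter CpG limits the last share was 4.40%. Another 3 alternatives were chosen after the data were seen. Within 1 kb of gene 5′ ends they gave 3724, 13.1%, 62.3%, 43.5% and 13.2%, near protein-coding transcripts 3580, 12.3%, 85.1%, 46.0% and 14.3%, and without chromosomes 10 and 12 a share of 19.8%. The first 2 settings add sites that overlap full-list peaks by construction. With summits within 500 bp, the share within 250 bp rises by construction, as the same 3033 sites are set against 4767. For the other moves the cause was not tested. A wider window raised the share of 21 of 21 strings. No paired analysis was possible because each protein had 1 library. Unknown depth limits what absence from a list means, since a peak under the caller's threshold is not listed.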
